A study of Mus musculus with 77 samples.

Results

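The genes described here are 10 genes that mark the resting glia of the retina, measured in the retinas of mice with oxygen-induced retinopathy (OIR) and of control mice. They were *Glul*, *Slc1a3*, *Rlbp1*, *Aqp4*, *Kcnj10* and *Dkk3*, which mark Mueller glia, and *S100b*, which marks astrocytes and some Mueller glia. The others were *Aldh1l1*, *Pdgfra* and *Pax2*, which are used as markers of astrocytes. All probes of the array that are not controls and whose transcript carries one of these symbols were taken, which gave 12 of 55681 probes, for 10 of the 21154 genes that the array names. *Aqp4* and *Pax2* had 2 probes each and the others 1. A gene was represented by its brightest probe.

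Each of the 77 arrays held the RNA of both pooled retinas of 1 C57BL/6 mouse, hybridized together with a universal mouse reference RNA. OIR mice were kept in 75% oxygen from P7 to P12 and then returned to room air, and control mice stayed in 21% oxygen. Retinas were taken from 13 OIR mice at each age, and from 12 control mice at P12, 12 at P17 and 14 at P28. The labels name no transgene, whole litters shared an oxygen condition, and the litter and sex of each mouse are not given in the labels, so that a litter effect cannot be told apart from the oxygen effect.

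Mueller glia are the radial glia that span the whole thickness of the retina. They take up glutamate and convert it to glutamine, carry potassium and water away from active neurons, and bind retinoids. Retinal astrocytes enter the eye from the optic nerve, spread over the inner surface and lay down the network that the growing vessels follow. Injured retinal glia are known for raising intermediate filaments and cytokine signaling genes, while the genes of their resting work can fall.

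The values are log2 ratios of retina over reference. The labels assign the retina to Cy5, but 3 genes of rod photoreceptors (*Gnat1*, *Pde6b* and *Sag*) had the higher signal in Cy3 on each of the 77 arrays, by 4.18 or more on the log2 scale, and Cy3 was therefore taken as the retina. The direction used here is therefore opposite to that of the dye labels, and is that of the values that the authors deposited. The ratio reported below, called the offset ratio, was computed from background-corrected signals to which 50 was added, so that ratios of dim spots lie closer to 0 than they would otherwise. For each day, OIR was compared with control by limma with the Benjamini-Hochberg adjustment over all probes, and a probe was called at an adjusted *p* under 0.05.

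All probes of *Glul*, *Slc1a3*, *Rlbp1*, *Kcnj10*, *Dkk3*, *Aldh1l1* and *S100b* and the brighter *Aqp4* probe had a retina signal well above background on all 77 arrays. The dimmer *Aqp4* probe was so on 73 arrays and *Pdgfra* on 67. Neither *Pax2* probe was well above background on any array, so that no change can be given for this transcription factor of the optic stalk and of astrocytes. None of the member probes was saturated. The number of probes well above background, used here as the brightness of an array, had group medians between 20045 and 21095 on P12 and P17, and of 32167 (control) and 32884 (OIR) on P28. The reference itself was near background for several members. It was well above background on 2 arrays for *Kcnj10*, 27 for *S100b*, 30 for *Rlbp1* and 39 for *Slc1a3*.

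By their brightest probes, 4 of the 10 genes passed the test on P17 with at least 1 way of processing, as described below. The dimmer *Aqp4* probe also passed with the retina channel alone, and is not counted among the 4. Of all probes, 5.15% passed under at least 1 of the 11 settings that are computed per probe. The promoters of these 4 genes, from RefSeq on GRCm38.p6, are shown in the direction of transcription. They run from 250 bases before to 50 bases after the annotated start. Capitals mark letters of 4 motifs that were searched on both strands, ACGTG (the core bound by hypoxia-inducible factors), TTCNNNGAA (bound by STAT factors), TTGGC followed after 5 bases by GCCAA (bound by nuclear factor I) and ACAAAG (bound by SOX factors).
Aldh1l1, chr6:90550543-90550842, plus strand: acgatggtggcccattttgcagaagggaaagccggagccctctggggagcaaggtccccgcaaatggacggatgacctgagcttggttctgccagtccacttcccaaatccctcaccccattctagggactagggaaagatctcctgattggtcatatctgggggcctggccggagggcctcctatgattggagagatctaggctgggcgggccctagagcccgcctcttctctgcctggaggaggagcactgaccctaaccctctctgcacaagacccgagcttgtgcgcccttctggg
Glul, chr1:153899679-153899978, plus strand: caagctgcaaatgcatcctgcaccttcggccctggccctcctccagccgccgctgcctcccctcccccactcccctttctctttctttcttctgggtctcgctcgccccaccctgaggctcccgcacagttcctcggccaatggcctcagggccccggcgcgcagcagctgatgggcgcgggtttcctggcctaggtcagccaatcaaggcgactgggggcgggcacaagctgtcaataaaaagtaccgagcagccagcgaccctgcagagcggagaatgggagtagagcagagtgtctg
Rlbp1, chr7:79386978-79387277, minus strand: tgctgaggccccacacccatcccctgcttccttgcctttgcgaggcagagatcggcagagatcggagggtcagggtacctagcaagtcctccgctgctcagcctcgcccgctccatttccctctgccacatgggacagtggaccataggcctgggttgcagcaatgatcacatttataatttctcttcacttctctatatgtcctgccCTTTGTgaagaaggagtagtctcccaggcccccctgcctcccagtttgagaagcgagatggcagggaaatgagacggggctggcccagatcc
Kcnj10, chr1:172340960-172341259, plus strand: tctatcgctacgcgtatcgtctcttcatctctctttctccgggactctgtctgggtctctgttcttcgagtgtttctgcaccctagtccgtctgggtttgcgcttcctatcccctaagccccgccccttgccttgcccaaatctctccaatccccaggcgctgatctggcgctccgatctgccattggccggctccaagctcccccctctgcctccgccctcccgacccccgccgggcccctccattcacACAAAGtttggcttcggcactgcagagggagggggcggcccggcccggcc

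*Rlbp1* held ACAAAG once on the opposite strand, where it reads as CTTTGT, and *Kcnj10* held it once at the annotated start. *Aldh1l1* and *Glul* held no match to any of the 4 motifs. Of 32851 RefSeq promoters of this length, 18.7% held ACAAAG, 19.6% held ACGTG, 8.3% held TTCNNNGAA and 0.0365% held the nuclear factor I motif. Of the other members searched, *Slc1a3* held ACGTG and TTCNNNGAA once each. *S100b* and *Pdgfra* held none. *Pax2* has 3 promoters in the table, of which the first held TTCNNNGAA and ACAAAG and the second ACAAAG. In all, 8 of the 10 genes were searched and no matches overlapped. A match is a stretch of letters and not a binding site.

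On P17, 5 days after the return to room air, *Aldh1l1* was higher in OIR than in control retinas and was the only one of the 10 genes called with the offset ratio. All probes together were called at a rate of 1.14% on this day. *Pdgfra* lay 0.27 above control, and the remaining 7 measured genes lay between 0.29 and 0.72 below control on the log2 scale. *S100b*, which marks astrocytes and some Mueller glia, was among these 7, at 0.29 below control. Neither *Pdgfra* nor any of the 7 passed the adjusted test. Before adjustment, 6 of the 9 measured genes had a *p* under 0.05, as did 10.4% of all probes. That share counts dim probes as well. Among 15404 probes well above background on every array of OIR or of control mice, 3142 had an unadjusted *p* under 0.05 by limma. With this filter, which left out *Pdgfra*, 5 of 8 members had one. Of these 8 members 1 was called, against 5.75% of the filtered probes. The median difference of the 10 genes, *Pax2* included, was −0.32, against 0.001 over all probes. In whole retinas, fewer cells of a type and less RNA per cell cannot be told apart.

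*Aldh1l1* encodes a dehydrogenase of folate metabolism that is found in astrocytes throughout the nervous system. Whether its signal in whole retinas came from astrocytes, Mueller glia or other cells was not tested. On P17 its offset ratio ran from 0.84 through a median of 1.15 to 1.67 in OIR mice, and from 0.37 through 0.84 to 1.14 in control mice. Of the 13 OIR mice, 12 lay above the control median and 7 above every control mouse. The difference was 0.41 (SE 0.086, 95% interval 0.24 to 0.59, adjusted *p* = 0.0105 by limma), a 1.33-fold rise. Within the 6 slides that held both groups on P17, OIR mice were higher on 5, with a median difference of 0.48 and a lowest of −0.10. On most of these slides the control value was that of 1 mouse. Some P17 control mice lay on slides without a P17 OIR mouse. Both limits hold for the P17 slide counts of all genes below. The gene was called under all 12 settings tried, with differences from 0.41 to 0.69 and adjusted *p* from 4.59e-05 to 0.0272 by limma. In the retina channel alone, all 13 OIR mice were above the control median and 11 were above every control mouse.

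**Figure D1:**
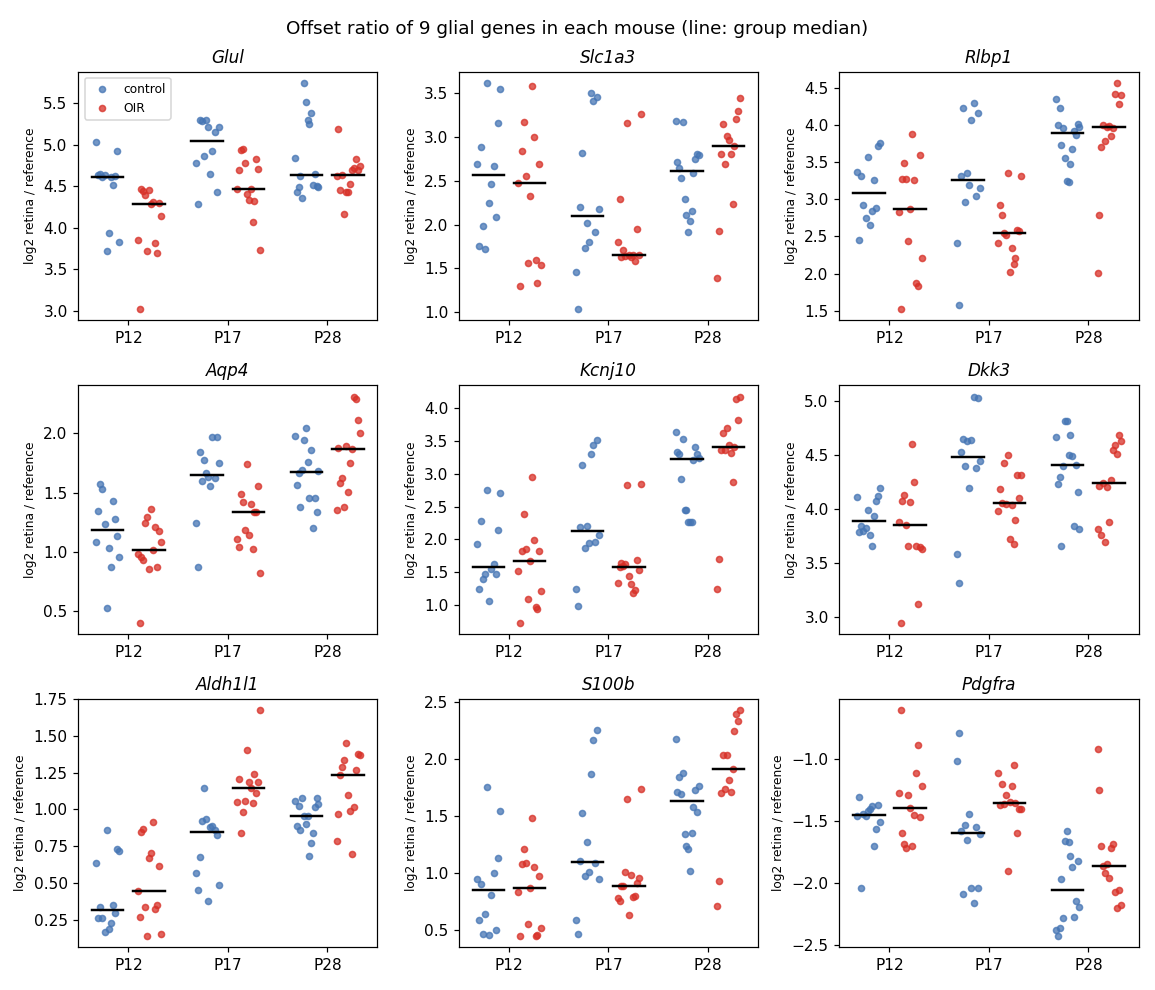
Log2 ratio of retina over reference (vertical axes) of 9 genes in each of 77 mice on P12, P17 and P28, with control mice in blue, OIR mice in red and black lines for group medians. On P17 the *Aldh1l1* median was 1.15 in OIR and 0.84 in control mice, while the OIR medians of *Glul*, *Rlbp1*, *Kcnj10* and *Aqp4* lay below those of control.

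Among the genes of glutamate handling, *Glul* encodes glutamine synthetase, which converts glutamate to glutamine in Mueller glia. On P17 it ran from 3.73 through a median of 4.47 to 4.95 in OIR mice, and from 4.28 through 5.04 to 5.30 in control mice. The control median was above all 13 OIR mice, of which 2 lay below every control mouse. The difference was −0.44 (SE 0.14, 95% interval −0.72 to −0.15, adjusted *p* = 0.160 by limma), which did not pass. OIR mice were lower on all 6 slides, by 0.24 to 0.72. With the slide as a block the difference was −0.51 and was called (adjusted *p* = 0.0304 by limma), where 1.5% of all probes were called.

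*Slc1a3* encodes the glutamate transporter GLAST, through which Mueller glia clear glutamate. On P17 it ran from 1.58 through a median of 1.65 to 3.26 in OIR mice, and from 1.04 through 2.10 to 3.50 in control mice. The groups overlapped over nearly the whole range, although 10 of the 13 OIR mice were below the control median. The difference was −0.32 (SE 0.27, adjusted *p* = 0.695 by limma), with an interval from −0.89 to 0.24, and the gene was called under none of the 12 settings.

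*Rlbp1* encodes the cellular retinaldehyde-binding protein of Mueller glia and of the pigment epithelium. On P17 it ran from 2.02 through a median of 2.55 to 3.36 in OIR mice, and from 1.58 through 3.26 to 4.29 in control mice. Of the OIR mice, 11 of 13 lay below the control median, and none below the lowest control mouse. The difference of −0.72 (SE 0.25, 95% interval −1.23 to −0.21) was the largest among the members on this day, and did not pass (adjusted *p* = 0.220 by limma). OIR mice were lower on all 6 slides, by 0.19 to 0.85. With the slide as a block the difference was −0.60 and was called (adjusted *p* = 0.0233 by limma).

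As *Rlbp1* is shared with the pigment epithelium, the markers of that tissue were set beside it. Of 9 such genes, *Rpe65*, the isomerase of the visual cycle, fell by 0.81 on P17 (adjusted *p* = 0.0321 by limma). No other gene of the list passed, 8 of the 9 were lower in OIR mice, and *Best1* was not above background on any array. The mean ratio over the list ran from 0.22 to 0.86 in OIR and from 0.26 to 1.25 in control mice. The part of these cells in the *Rlbp1* difference was not tested.

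*Kcnj10* encodes the potassium channel Kir4.1, and *Aqp4* the water channel aquaporin-4, which lie together in the endfeet of Mueller glia. On P17 *Kcnj10* ran from 1.18 through a median of 1.57 to 2.84 in OIR mice, and from 0.98 through 2.13 to 3.52 in control mice. Of the 13 OIR mice, 11 were below the control median and none was below the lowest control mouse. The difference was −0.64 (SE 0.27, 95% interval −1.20 to −0.08, adjusted *p* = 0.385 by limma). OIR mice were lower on 5 of 6 slides, with a median difference of −0.48.

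The brighter *Aqp4* probe ran from 0.82 through a median of 1.34 to 1.75 in OIR mice on P17, and from 0.87 through 1.65 to 1.97 in control mice. Here 12 of 13 OIR mice were below the control median, and OIR mice were lower on all 6 slides. The difference was −0.35 (SE 0.11, 95% interval −0.57 to −0.12, adjusted *p* = 0.163 by limma). The dimmer probe gave −0.66 (SE 0.21, adjusted *p* = 0.183 by limma), in the same direction and also on all 6 slides. Neither probe passed with the offset ratio.

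*Dkk3* encodes a secreted protein of the Dickkopf family that is abundant in Mueller glia. On P17 it ran from 3.68 through a median of 4.05 to 4.51 in OIR mice, and from 3.31 through 4.49 to 5.04 in control mice. Of the OIR mice, 12 of 13 were below the control median. The difference of −0.31 (SE 0.15, 95% interval −0.63 to 0.01) did not pass (adjusted *p* = 0.508 by limma).

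*S100b* encodes a calcium-binding protein of glia. On P17 it ran from 0.63 through a median of 0.88 to 1.73 in OIR mice, and from 0.46 through 1.09 to 2.25 in control mice. The difference of −0.29 (SE 0.18, 95% interval −0.66 to 0.08) did not pass (adjusted *p* = 0.601 by limma), and was lower on 5 of 6 slides.

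*Pdgfra* encodes the receptor through which astrocytes respond to platelet-derived growth factor A, and is also found in fibroblasts and in oligodendrocyte precursors. Its signal was lower in retina than in reference. On P17 it ran from −1.91 through a median of −1.36 to −1.05 in OIR mice, and from −2.16 through −1.60 to −0.79 in control mice. Of the OIR mice, 11 of 13 were above the control median, and none above every control mouse. The difference of 0.27 (SE 0.13, 95% interval 0.0046 to 0.54) did not pass (adjusted *p* = 0.471 by limma).

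Markers of the other cells that carry *Pdgfra* were compared as well. None of the 5 fibroblast genes passed on P17, and all 5 gave differences above 0, with a median of 0.52. Of these genes *Lum* was well above background on 6 of 77 arrays and *Dcn* on 42. With the deposited values 3 of the 5 were called by limma, *Col1a1* (1.65, adjusted *p* = 0.00147), *Col1a2* (0.74, adjusted *p* = 0.0129) and *Col3a1* (1.25, adjusted *p* = 7.57e-06), as were 3 with the retina channel alone and 1 with the slide as a block. Their mean ratio ran from −4.20 to −2.56 in OIR and from −4.85 to −2.59 in control mice. Among 10 oligodendrocyte genes, *Cspg4*, which encodes the NG2 proteoglycan of precursors and pericytes, rose by 0.73 (adjusted *p* = 0.0211 by limma), while *Mobp* and *Olig1* were not above background on any array and *Olig2* was so on 1. The mean ratio of the oligodendrocyte list ran from 0.15 to 0.37 in OIR and from −0.0045 to 0.26 in control mice. The part of these cells in the *Pdgfra* difference was not tested.

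The P17 differences were examined further because the ratios moved with the brightness of the arrays within groups. After the group means were taken out, the correlation with brightness over 77 arrays was 0.88 for *Kcnj10*, 0.82 for *S100b*, 0.80 for *Slc1a3*, 0.78 for *Rlbp1* and −0.79 for *Pdgfra*. It was 0.54 for *Aldh1l1*, 0.29 for *Dkk3*, 0.08 for *Aqp4* and −0.34 for *Glul*. With the deposited values the sign of most of these turned, to −0.82 for *Dkk3*, −0.73 for *Rlbp1*, −0.61 for *Aqp4* and −0.60 for *S100b*. It also turned for *Slc1a3* (−0.58), *Aldh1l1* (−0.46) and *Pdgfra* (0.70). *Glul* and *Kcnj10* kept their signs, at −0.83 and 0.45. These correlations are a description of arrays that share slides and scans. With brightness as a covariate, *Rlbp1* (−0.63, adjusted *p* = 0.00599), *Kcnj10* (−0.54, adjusted *p* = 0.00643) and *Aldh1l1* (0.44, adjusted *p* = 9.51e-05) were called on P17 by limma. All probes were called at 3.66% in that fit.

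**Figure D2:**
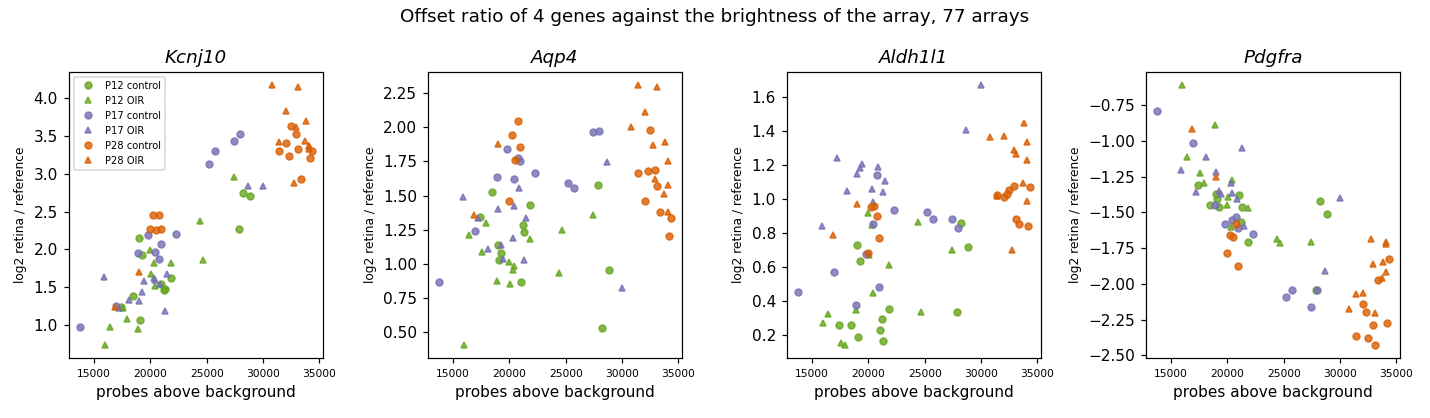
Log2 ratio of retina over reference (vertical axes) of *Kcnj10*, *Aqp4*, *Aldh1l1* and *Pdgfra* against the number of probes well above background (horizontal axes), for 77 arrays colored by day, with circles for control and triangles for OIR mice. Within groups the correlation with brightness was 0.88 for *Kcnj10*, −0.79 for *Pdgfra* and 0.08 for *Aqp4*, against 0.45, 0.70 and −0.61 with the deposited values, which are not plotted.

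The retina channel was also compared alone, after quantile normalization between arrays and without the reference. On P17 this called *Glul* (−0.52), *Rlbp1* (−0.56), *Kcnj10* (−0.42) and *Aldh1l1* (0.57), with adjusted *p* of 0.000895, 0.00038, 0.00378 and 4.59e-05 by limma, where all probes were called at 3.11%. In this channel the log2 level of *Glul* ran from 11.35 through a median of 12.15 to 12.37 in OIR mice, and from 12.22 through 12.60 to 12.83 in control mice. All 13 OIR mice were below the control median for *Glul* and *Rlbp1*, with 8 and 9 of them below every control mouse. For *Kcnj10*, 10 OIR mice were below every control mouse. The dimmer *Aqp4* probe was also called in this channel, with a difference of −0.69, while the brighter one gave −0.26 and was not called.

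With the values deposited by the authors, *Kcnj10* (−0.97, adjusted *p* = 0.0377) and *Aldh1l1* (0.69, adjusted *p* = 0.000987) were called on P17 by limma, against 2.64% of all probes. Among the other settings, all probes were called at 1.87% without background subtraction, 1.64% with an offset of 0 and 5.75% among probes above background. The share was 1.15% with the mean of the probes of a gene and 1.11% with a trended robust variance prior. It was 1.22% with 1 model over the 6 groups, and 2.22% for the deposited values with the slide as a block. The reference channel alone gave no member called between OIR and control mice on P17, and no member with an unadjusted *p* under 0.05, by limma, where 0.0018% of all probes were called. Across all settings, none of the 9 measured genes changed the sign of its P17 difference. Of these genes, *Aldh1l1* alone passed under every setting. *Rlbp1* and *Kcnj10* passed under 3 of 12 settings each and *Glul* under 2. Over these settings the difference ranged from −0.72 to −0.22 for *Rlbp1*, the smallest being that of the deposited values (adjusted *p* = 0.876 by limma), from −0.97 to −0.42 for *Kcnj10*, and from −0.52 to −0.29 for *Glul*.

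**Figure D3:**
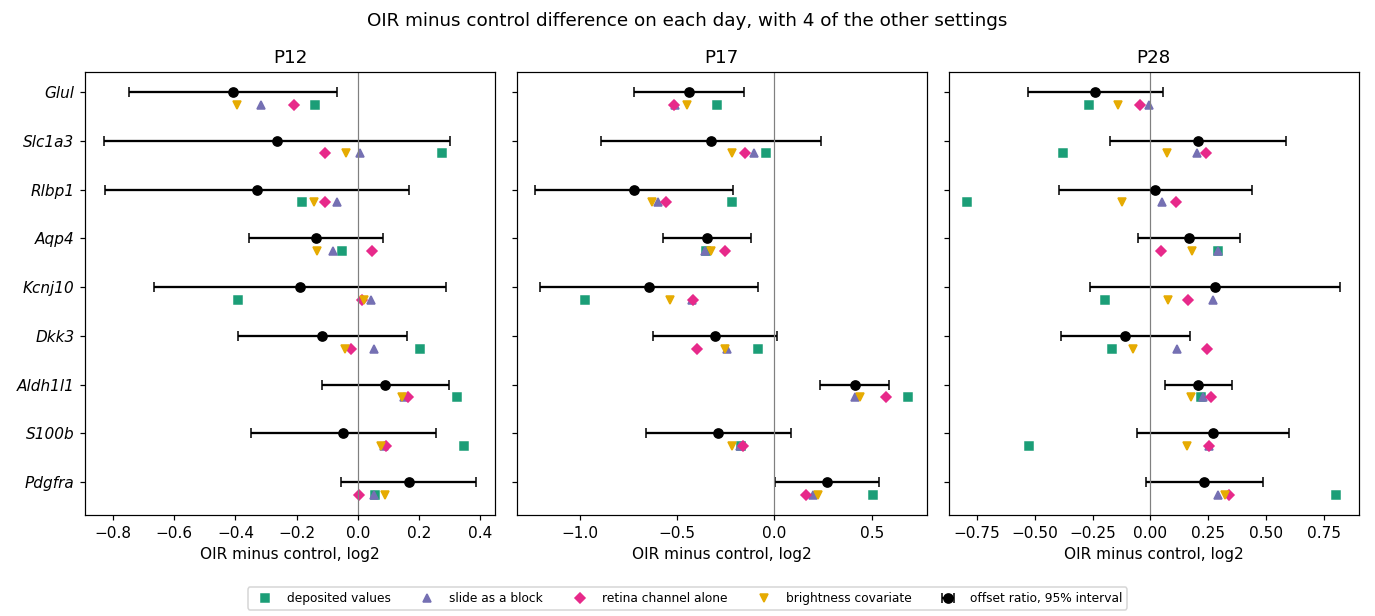
Difference of OIR minus control mice on the log2 scale (horizontal axes) for 9 genes (rows) on P12, P17 and P28, with black points and 95% intervals for the offset ratio and colored symbols for 4 other settings. On P17 the symbols of each gene lie on one side of 0, with *Aldh1l1* at 0.41 or higher, while on P12 and P28 several genes cross 0.

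**Figure D4:**
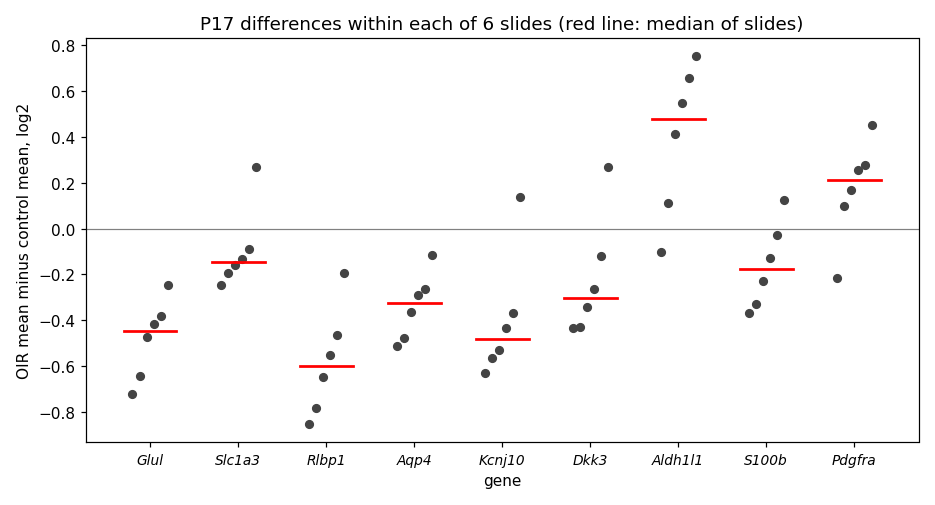
Difference between the OIR mean and the control mean within each of the 6 slides that held both groups on P17 (vertical axis, log2), with a point for each slide and a red line for the median. *Glul*, *Rlbp1* and *Aqp4* were below 0 on all 6 slides, and *Aldh1l1* and *Pdgfra* were above 0 on 5. On most of these slides the control mean was that of 1 mouse.

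On P12, at the end of hyperoxia, none of the 10 genes was called by limma, and *Glul* alone had an unadjusted *p* under 0.05, as did 3.13% of all probes. All probes were called at 0.0216%, which was 12 probes. The *Glul* ratio ran from 3.02 through a median of 4.28 to 4.47 in OIR mice, and from 3.71 through 4.61 to 5.04 in control mice. The control median was again above all 13 OIR mice. The difference was −0.41 (SE 0.16, 95% interval −0.75 to −0.07), and it ranged from −0.41 to −0.14 over 12 settings without being called.

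The other P12 differences were small against their errors. They were −0.33 (SE 0.24) for *Rlbp1*, −0.26 (SE 0.27) for *Slc1a3*, −0.19 (SE 0.23) for *Kcnj10*, −0.14 (SE 0.11) for *Aqp4*, −0.12 (SE 0.13) for *Dkk3* and −0.05 (SE 0.15) for *S100b*. *Aldh1l1* and *Pdgfra* gave 0.09 (SE 0.10) and 0.17 (SE 0.11). The signs of *Slc1a3*, *Aqp4*, *Kcnj10*, *Dkk3* and *S100b* on P12 depended on the processing, so that no direction can be given for them on this day.

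On P28, none of the 10 genes was called with the offset ratio, and *Aldh1l1* alone had an unadjusted *p* under 0.05, as did 7.44% of all probes. All probes were called at 0.0611%. On P28, 2 of 13 OIR and 5 of 14 control arrays had fewer than 25000 probes well above background. All of these dim arrays lay on slides that held either OIR or control mice of P28, not both. The oxygen effect on P28 can therefore not be fully told apart from slide and brightness. The *Aldh1l1* ratio ran from 0.70 through a median of 1.23 to 1.45 in OIR mice, and from 0.68 through 0.96 to 1.08 in control mice. Of the 13 OIR mice, 8 lay above every control mouse. The difference was 0.21 (SE 0.070, adjusted *p* = 0.545 by limma), was above 0 on all 3 slides that held both groups, and ranged from 0.17 to 0.26 over 12 settings without being called.

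*Pdgfra* on P28 ran from −2.21 through a median of −1.86 to −0.92 in OIR mice, and from −2.43 through −2.06 to −1.58 in control mice. The difference of 0.23 (SE 0.12, adjusted *p* = 0.682 by limma) did not pass with the offset ratio. It was called under 4 of 12 settings, with 0.80 for the deposited values (adjusted *p* = 0.00634 by limma) and 0.34 for the retina channel alone (adjusted *p* = 0.00944 by limma), where all 13 OIR mice were above the control median. Those settings called 0.203% and 0.296% of all probes. The other 2 were an offset of 0 (0.64) and the deposited values with the slide as a block (0.62), where 0.079% and 0.136% of all probes were called. On P28, 13 of 13 OIR mice and 12 of 14 controls had a *Pdgfra* signal well above background. With brightness as a covariate *Pdgfra* was not called on P28. Its deposited values had a correlation of 0.70 with brightness within groups. None of the fibroblast or oligodendrocyte genes was called on P28.

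The other P28 differences were −0.24 (SE 0.14) for *Glul*, 0.17 (SE 0.11) for *Aqp4*, 0.28 (SE 0.26) for *Kcnj10*, 0.27 (SE 0.16) for *S100b*, 0.21 (SE 0.19) for *Slc1a3*, 0.02 (SE 0.20) for *Rlbp1* and −0.11 (SE 0.14) for *Dkk3*. The signs of the last 5 depended on the processing. *Glul* ranged from −0.27 to −0.0074 over 12 settings, the latter with the slide as a block, and was higher in OIR mice on 1 of 3 slides. *Aqp4* ranged from 0.04 to 0.30. With the offset ratio the P28 medians of *Rlbp1*, *Kcnj10* and *Aqp4* were 3.97, 3.41 and 1.87 in OIR mice and 3.90, 3.23 and 1.67 in control mice.

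Whether the OIR effect itself changed between days was tested in a model over all 6 groups. No member was called by limma for the change from P12 to P17, where all probes were called at 0.487%, or for the change from P17 to P28, where they were called at 0.278%. Before adjustment, 1 and 4 of the 9 measured genes had a *p* under 0.05, as did 4.87% and 14% of all probes. A difference between days is therefore not shown for any of these genes by the offset ratio with brightest probes and no slide block. The retina channel alone called the change from P17 to P28 for *Glul*, *Rlbp1* and *Kcnj10* (0.47, 0.67 and 0.58), where all probes were called at 1.04%. The slide block called it for *Aqp4* (0.67), where all probes were called at 0.39%. *Aqp4* was also called with the mean of the probes of a gene (0.80, adjusted *p* = 0.0105 by limma), and so under 2 of 11 settings. For the change from P12 to P17, the retina channel alone called *Aldh1l1* (0.41, adjusted *p* = 0.0365 by limma). That was 1 of 11 settings.

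Maturation was compared within the control and within the OIR mice. From P12 to P17, 2 of the 10 genes rose in control mice, against 1.28% of all probes. *Aqp4* rose by 0.46 (SE 0.11, adjusted *p* = 0.016) and *Aldh1l1* by 0.33 (SE 0.090, adjusted *p* = 0.0391), both by limma. In OIR mice *Aldh1l1* alone was called, with a rise of 0.66 (SE 0.087, adjusted *p* = 2.79e-08 by limma), against 3.42% of all probes. The median of *Aldh1l1* in control mice was 0.32 on P12, then 0.84 on P17 and 0.96 on P28. In OIR mice it was 0.44, then 1.15 and 1.23. Within a day, OIR and control mice differed past the test on P17 alone. From P17 to P28 neither group passed for *Aldh1l1*, with 0.19 (SE 0.087) in control and −0.02 (SE 0.087) in OIR mice.

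From P17 to P28, 1 of the 10 genes was called in control mice, against 13.4% of all probes, and 6 in OIR mice, against 40.6%. In OIR mice *Kcnj10* was higher on P28 by 1.57, *Rlbp1* by 1.23, *S100b* by 0.86, *Slc1a3* by 0.79 and *Aqp4* by 0.53, and *Pdgfra* was lower (−0.44), with adjusted *p* of 0.00772 or less by limma. *Pdgfra* was also lower in control mice (−0.40, adjusted *p* = 0.0184 by limma). Most P28 arrays were brighter than most P17 arrays. With a limit of 25000 probes well above background, 2 of 13 OIR and 5 of 14 control arrays of P28 were below it, against 11 of 13 and 8 of 12 of P17. With the offset ratio, the correlation with brightness within groups had the same sign as these changes. With brightness as a covariate, *Aqp4* (0.49), *Kcnj10* (0.47) and *Aldh1l1* (−0.24) were called by limma, against 12.6% of all probes, and *Rlbp1*, *Slc1a3*, *S100b* and *Pdgfra* were not. With the deposited values *Rlbp1* (−1.40), *Slc1a3* (−0.99) and *S100b* (−0.998) were called in the opposite direction, against 44.3% of all probes, and in the reference channel alone *Glul*, *Rlbp1*, *Slc1a3*, *Dkk3* and *S100b* were themselves called between P17 and P28 in OIR mice, against 6.34% of all probes. No direction between these days is therefore given for *Rlbp1*, *Slc1a3*, *S100b* or *Pdgfra*. *Kcnj10* was higher on P28 under all 11 settings of this comparison and was called under 10, and *Aqp4* was higher under 10 and called under 8. Most P28 arrays of OIR mice lay on slides that held no P17 array of OIR mice. They were also scanned on another day than most P17 arrays of OIR mice. All settings use these same arrays, so that age cannot be fully told apart from slide and scan here.

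Some members moved together from mouse to mouse and others did not. With group means taken out, 23 of 36 pairs of members had a correlation above 0 and 13 below, *Pdgfra* being negative with every other member. *Kcnj10* and *S100b* had a Pearson correlation of 0.95 over the 77 arrays, *Slc1a3* and *Kcnj10* 0.94, *Rlbp1* and *Kcnj10* 0.92, and *Rlbp1* and *Pdgfra* −0.86. *Glul* gave −0.11 with *Slc1a3*, −0.14 with *Kcnj10* and −0.17 with *S100b*. These values depended on the processing. With the deposited values the same first 3 pairs gave −0.07, −0.22 and −0.10, and the highest correlation was 0.86, between *Glul* and *Rlbp1*. Of 21144 other genes, the one most like each member was *Sag* for *Glul* (0.86), *Rit2* for *Rlbp1* (0.96), *Bex4* for *Slc1a3* (0.97), *Syt1* for *Aqp4* (0.82), *Elmod1* for *Kcnj10* (0.97), *Cnga1* for *Dkk3* (0.88), *Larp6* for *Aldh1l1* (0.82), *Zmat4* for *S100b* (0.96) and *Cks1b* for *Pdgfra* (0.93). The next most like were *Vtn* and *Vstm2l* for *Glul*, *Sphkap* for *Rlbp1*, *Camta1* and *Gpr37* for *Slc1a3*, *Otx2* and *Pdc* for *Aqp4*, *Prdm8* and *Fry* for *Kcnj10*, *Plk5* and *Slc22a17* for *Dkk3*, *Ctsh* and *Cdh22* for *Aldh1l1*, *Smarcal1* and *Gpr37* for *S100b*, and *Ubl4a* and *Tnfaip8* for *Pdgfra*. The arrays share slides and brightness, which was not taken out of these correlations.

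Other glial genes were set beside the members. Of 17 further Mueller glia genes, 2 rose and 2 fell on P17 and the median difference was −0.13. *Vim*, an intermediate filament, rose by 1.19 (adjusted *p* = 2.15e-08 by limma), *Cd9*, a membrane tetraspanin, rose by 0.61, *Prdx6*, a peroxiredoxin, fell by 0.35, and *Car2*, the cytosolic carbonic anhydrase of Mueller glia, fell by 0.65 (adjusted *p* = 0.0317 by limma), with −0.18 and no call for the deposited values. The transcription factors *Sox2*, *Sox8*, *Sox9* and *Lhx2* gave −0.12, −0.16, 0.11 and −0.39 without passing. Of 10 further astrocyte genes *Gfap*, the filament of astrocytes and of injured Mueller glia, rose by 0.98 (adjusted *p* = 1.18e-06 by limma) and no other passed, with a median of 0.02. Of 18 genes of glial transport, *Car2* alone passed, and the median was 0.0029. *Mlc1*, *Slc1a2* and *Atp1b2* of this list gave −0.68, −0.06 and 0.14 without passing.

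Of 16 genes of reactive glia, 13 rose on P17 and none fell, with a median difference of 0.86. This list was chosen with earlier results of these data known, so that the count is not an independent test. *Edn2*, *Cebpd* and *Gfap* of the list are among the genes that the study itself lists as most raised on P17. The largest rise was that of the transcription factor *Cebpd* at 2.65 and the smallest that of the growth factor *Fgf2* at 0.11, while *Serpina3n*, *Steap4* and *Cd44* did not pass. *Gfap* and *Vim* belong to this list as well. On P28, *Edn2*, an endothelin, and *Cebpd* of the reactive list were higher by 1.36 and 1.25, and no gene of the further Mueller glia, astrocyte or transport lists passed. On P12 no gene of these lists passed.

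**Figure D5:**
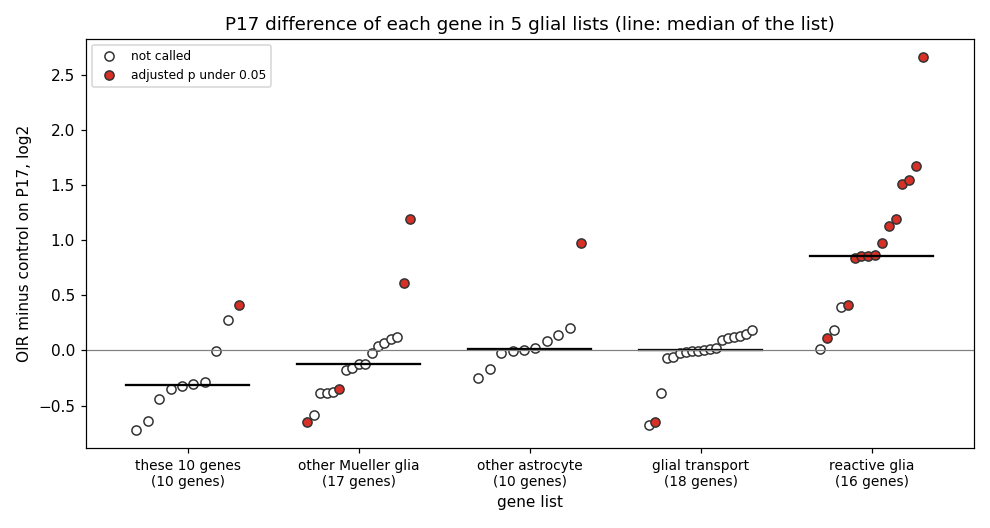
Difference of OIR minus control mice on P17 (vertical axis, log2) for each gene of 5 lists (horizontal axis), with filled points for an adjusted p under 0.05 and lines for list medians. The 10 resting genes have a median of −0.32 with 1 called, and the 16 reactive genes a median of 0.86 with 13 called. The lists were chosen with earlier results of these data known.

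Markers of other retinal cells were compared on P17 as well. None of the 5 rod, 6 endothelial or 5 cell division genes passed, and their median differences were 0.03, 0.02 and 0.32. Several of these were dim. The cell division genes *Top2a*, *Cdk1*, *Ccnb1* and *Mki67* were well above background on 3, 19, 25 and 36 of 77 arrays. The endothelial gene *Tek* was so on 19. With the deposited values *Mki67* (1.32, adjusted *p* = 0.00168) and *Birc5* (1.29, adjusted *p* = 4.98e-05) of the cell division list were called by limma. *Nefl*, the light neurofilament, was lower by the offset ratio (−0.77, adjusted *p* = 0.0478 by limma) among 5 ganglion cell genes, but gave 0.15 with the deposited values (adjusted *p* = 0.91 by limma), so that no direction is given for it. *Aif1* and *Csf1r* of 6 microglia genes rose by 0.33 and 0.51. The mean ratio of the microglia list ran from −0.33 to 0.06 in OIR and from −0.51 to −0.17 in control mice, and that of the rod list from 4.20 to 6.04 and from 4.58 to 6.08. The part of these cells in the member differences was not tested.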

How the data were processed

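The retinas of 77 mice were measured, 1 array per mouse. Per the file headers, the authors extracted the median signal and background of each spot as intensity values with Feature Extraction 10.7.3.1, and the table that the authors deposited holds log2 ratios of the processed Cy3 to the processed Cy5 signal. GeneSpring GX is named for the study's normalization, without settings, and the file headers name the mm9 build.

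For the offset ratio, limma (version 3.58.1, in R 4.3.3) was applied to the median signals. Background was removed by normexp, 50 was added, and each array was loess-normalized with control spots at weight 0. Spots marked as outliers, 0.592 to 0.951% per array, were left out, spots of a probe were averaged, and no filter on brightness was used. Probes were named by transcript through RefSeq, which gave 28026 probes a symbol. P12, P17 and P28 were fitted apart for OIR against control, and changes between days in 1 model over 6 groups. Replicates are different mice, and the numbers of arrays and of litters limit the precision. The study used fewer litters than mice, while limma treated the mice as independent. The errors given here may therefore be too small. The 11 slides and 11 other settings were examined, 2 of these (brightness as a covariate, and deposited values with the slide as a block) chosen after seeing the data, as was the reference channel. The members, marker lists and motifs were chosen with earlier results of these data known. Named are all members, the 3 genes most like each (1 such gene is not reported here), and the called marker genes with the largest and smallest change, and further list genes were named after their values were seen. The procedure was tested on simulated data with independent noise and no slides, scans or differences in brightness. That test therefore does not show how the procedure handles these.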

Additional observations from a re-analysis of the deposited data

How the results depend on the processing

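No paired analysis was possible because each mouse number occurs on 1 array and the groups share none. On P17 the number of members called was 1 as reported, 2 with the deposited values, 3 with the slide as a block or brightness as a covariate, and 4 with the retina channel alone. On P28 it was 0, and 1 with an offset of 0, the deposited values, these with the slide block, and the retina channel. For control mice from P12 to P17 it was 2, then 1 with an offset of 0 or the deposited values, 3 without background subtraction or with the filter on dim probes, 5 with the slide block, the retina channel or brightness, and 6 with deposited values and slide block. For control mice from P17 to P28 it was 1, then 0 with an offset of 0 or brightness and 2 with the retina channel or deposited values and slide block. For OIR mice from P12 to P17 it was 1, then 3 with the slide block and 2 with the filter on dim probes, the retina channel, brightness, or deposited values and slide block. For OIR mice from P17 to P28 it was 6, then 7 with the retina channel, 5 with the slide block or without background subtraction, 3 with an offset of 0 or brightness and 1 with deposited values and slide block. The change of the OIR effect went from 0 to 1 with the retina channel for P12 to P17. For P17 to P28 it went from 0 to 1 with the slide block or the mean of all probes, and to 3 with the retina channel.

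On P12 the sign turned for *Slc1a3* with an offset of 0 (0.056), the deposited values (0.28), the slide block (0.0061) and both of the last (0.25). *Dkk3* turned with the same settings (0.12, 0.20, 0.054 and 0.10), as did *S100b* (0.19, 0.35, 0.085 and 0.38), which also turned with the retina channel (0.093) and brightness (0.077). *Kcnj10* turned with the slide block (0.042), the retina channel (0.014) and brightness (0.019), and *Aqp4* with the retina channel (0.047). On P28 *Rlbp1* turned without background subtraction (−0.11), with an offset of 0 (−0.54), the deposited values (−0.79), these with the slide block (−0.16) and brightness (−0.12). With an offset of 0 and the deposited values, *Slc1a3* (−0.20 and −0.38), *Kcnj10* (−0.10 and −0.20) and *S100b* (−0.19 and −0.52) turned, and with deposited values and slide block *Slc1a3* (−0.19) and *S100b* (−0.0005). *Dkk3* turned on P28 with the slide block (0.12), the retina channel (0.25) and deposited values with slide block (0.069).

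From P17 to P28 in OIR mice, an offset of 0, the deposited values and these with the slide block turned *Rlbp1* (−0.52, −1.40 and −0.28), *Slc1a3* (−0.41, −0.99 and −0.30) and *S100b* (−0.14, −0.998 and −0.14), and brightness turned *Slc1a3* (−0.17). *Pdgfra* turned with the deposited values (0.37), the retina channel (0.22), deposited values and slide block (0.095) and brightness (0.021), and *Aqp4* with the retina channel (−0.010). In control mice *Pdgfra* turned with the deposited values (0.076), the retina channel (0.044) and deposited values and slide block (0.0017). The cause was not tested in any of these cases. Most P28 arrays were brighter than most arrays of the other days, and unevenly so between OIR and control mice. This limits all comparisons between days, and those of OIR with control mice on P28. Over 11 settings, all probes were called at 1.2 to 5.96% and 11.9 to 38.2% for the control day changes, at 3.38 to 15.7% and 12.2 to 71.1% for those of OIR mice, and at 0.451 to 2.01% and 0.266 to 1.06% for the changes of the OIR effect, in order of days.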
